A study of Macaca mulatta with 8 samples.

Results

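The nuclear genes of oxidative phosphorylation were followed in single-cell RNA sequencing of the retina of 2 macaques. The members were all features whose symbol begins with NDUFA, NDUFB, NDUFC, NDUFS, NDUFV, UQCR, ATP5 or COX4 to COX8, together with SDHA, SDHB, SDHC and SDHD. They were 78 of the 26533 features. By symbol they were 30 complex I subunits, 8 complex I assembly factors, 4 complex II subunits, 5 complex III genes, 16 complex IV genes, 14 complex V subunits and ATP5IF1, an inhibitor of complex V. Their UMIs, the unique molecular identifiers that mark single captured RNA molecules, were compared between rod-like, cone-like and Müller glia-like cells, between retinal areas and between eyes.

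Both animals were wild-type male Macaca mulatta, NHP1 aged 5 years and NHP2 aged 6 years. NHP1 had AAV2-CAG-hRPE65 under the retina of both eyes, from a promoter active in many cell types, and gave 1 library per eye from retina labelled uninjected. NHP2 gave 3 libraries per eye, from retina outside the blebs (uninjected), from the bleb of AAV8-GRK1-hRPGR and from that of AAV8-GRK1-mScarlet. The GRK1 promoter drives expression in photoreceptors. Each library came from punches of retina. All eyes had periocular triamcinolone, and both left eyes also had intravitreal adalimumab, an antibody against TNF, so that eye and antibody cannot be told apart. Each set of areas came from 1 animal, so in the area comparisons the spread between libraries is that between eyes or areas, not animals. The class comparisons pooled 8 libraries, 6 of them from NHP2, so their spread mixes eyes, areas and animals. With 2 animals it does not measure the spread between animals.

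Oxidative phosphorylation couples the transfer of electrons to the making of ATP in the inner mitochondrial membrane. Complexes I and II pass electrons to ubiquinone, complex III passes them to cytochrome c, complex IV passes them to oxygen, and complex V, the ATP synthase, uses the proton gradient that the others build. Nuclear genes encode all of complex II and most subunits of the others, while the mitochondrial genome encodes a small core set. Photoreceptors are known for a dense pack of mitochondria in the ellipsoid of the inner segment, and Müller glia for a largely glycolytic metabolism.

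The sequences shown are the 250 bases before the annotated start of 5 members on which the class comparisons turned. They are COX6B2 and ATP5ME, whose levels were the highest of the 3 compared classes in cone-like cells, ATP5MC1 and ATP5MC2, a pair of genes for the same ring subunit with opposite patterns, and SDHA, which was highest in rod-like cells. They are written 5′ to 3′ on the strand of the gene, from RefSeq on Mmul_10. Capitals mark a match, on either strand, to the cores TGCGCA (NRF1, its own reverse complement), CCGGAAG (ETS), AAGATGG (YY1, which can overlap the ETS core) or TAATCC (CRX, a photoreceptor factor).
COX6B2: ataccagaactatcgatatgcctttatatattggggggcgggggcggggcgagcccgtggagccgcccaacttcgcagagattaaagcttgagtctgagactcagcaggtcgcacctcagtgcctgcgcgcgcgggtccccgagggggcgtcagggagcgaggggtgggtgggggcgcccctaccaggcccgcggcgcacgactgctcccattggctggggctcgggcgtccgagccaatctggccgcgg
ATP5ME: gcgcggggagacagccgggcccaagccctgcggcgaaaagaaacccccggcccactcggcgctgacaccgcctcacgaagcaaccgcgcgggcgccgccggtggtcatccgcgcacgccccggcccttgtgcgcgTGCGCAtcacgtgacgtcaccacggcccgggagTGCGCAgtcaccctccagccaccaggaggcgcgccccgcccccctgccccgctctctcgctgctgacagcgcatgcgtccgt
ATP5MC1: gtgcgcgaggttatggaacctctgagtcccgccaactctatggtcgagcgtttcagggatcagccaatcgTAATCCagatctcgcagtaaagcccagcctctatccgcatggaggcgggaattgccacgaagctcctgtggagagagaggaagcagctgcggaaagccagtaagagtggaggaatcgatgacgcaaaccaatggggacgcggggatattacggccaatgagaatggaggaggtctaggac
ATP5MC2: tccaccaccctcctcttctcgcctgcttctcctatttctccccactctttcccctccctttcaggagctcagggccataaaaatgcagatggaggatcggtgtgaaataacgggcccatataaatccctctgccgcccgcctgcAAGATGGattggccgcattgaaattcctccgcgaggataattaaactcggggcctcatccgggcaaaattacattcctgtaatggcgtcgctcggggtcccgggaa
SDHA: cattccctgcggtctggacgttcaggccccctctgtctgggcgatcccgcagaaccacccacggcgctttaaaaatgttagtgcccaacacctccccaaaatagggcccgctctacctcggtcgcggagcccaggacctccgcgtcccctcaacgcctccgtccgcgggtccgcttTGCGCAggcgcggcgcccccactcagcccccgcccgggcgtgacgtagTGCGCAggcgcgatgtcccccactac

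The COX6B2 window was chr19:55105944-55106193, the ATP5ME window chr5:675797-676046, the ATP5MC1 window chr16:47900252-47900501, the ATP5MC2 window chr11:53268203-53268452, all on the minus strand, and the SDHA window chr6:195124-195373 on the plus strand. The genes themselves spanned chr19:55102041-55105943 (COX6B2), chr5:673851-675796 (ATP5ME), chr16:47897213-47900251 (ATP5MC1), chr11:53255936-53268202 (ATP5MC2) and chr6:195374-228465 (SDHA). The ATP5ME and SDHA windows each held 2 NRF1 cores, the ATP5MC2 window 1 YY1 core and the ATP5MC1 window 1 CRX core. The COX6B2 window held none of the 4 cores and 25 CpG dinucleotides. The RefSeq annotation was matched by symbol alone to features counted under Ensembl identifiers, so its gene models may differ from those counted. Of the 78 members, 73 had a gene of that symbol in the RefSeq annotation, and COX7A2, ATP5MJ, UQCRB, COX5B and COX7A1 had none. The NRF1 core was in 11 of these 73 windows (15.1%) and in 6.82% of 20782 windows of protein-coding genes, and the ETS core in 9 (12.3%) and 7.19%. The YY1 core was in 3 (4.11%) and 3.65%, and the CRX core in 4 (5.48%) and 9.15%. Member windows held a median of 16 CpG dinucleotides, against 12 over all windows. The NRF1 and ETS cores contain a CpG and the YY1 and CRX cores do not, and its part in these shares was not tested. These matches are a description of the letters and not of binding.

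Each library held between 90634306 and 146519011 UMIs, and 83192 cells remained after filters and removal of doublets. Clustering left out all 78 members, so that the classes were drawn without them. There were 33793 rod-like, 2524 cone-like and 6882 Müller glia-like cells, and their sums per library held 20908756 to 32390349, 3073418 to 7581742 and 3938404 to 8717230 UMIs. The classes carried their defining markers. NRL, a transcription factor of rods, was at 3428 to 4629 CPM (UMIs scaled to a class total of 1000000) in rod-like cells and at 35.1 to 112 CPM in cone-like cells. It was at 211 to 408 CPM in Müller glia-like cells, whose sums were estimated to hold 13.1% to 41.6% free RNA. ARR3, the cone arrestin, was at 3588 to 5075 CPM in cone-like cells and at most 72.0 CPM in rod-like cells, and RLBP1, a Müller glia retinoid-binding protein, at 3820 to 5440 CPM in Müller glia-like cells and at most 16.8 CPM in rod-like cells. Of 86960 distinct cell barcodes, 4685 occurred in more than 1 library. The left NHP1 library, labelled uninjected, held huRPE65 at 620 CPM in rod-like cells, and the right NHP2 uninjected library held coRPGR at 162 CPM, while the left NHP2 uninjected library had no coRPGR UMI there. In 3 libraries (NHP1 left, NHP2 uninjected left and NHP2 hRPGR right) the members made up 17157 to 20243 CPM of free RNA, against 4963 to 8275 CPM in the others. ARR3 in rod-like cells was at 30.4 to 72.0 CPM in these 3 and at most 9.54 CPM in the others, and the lower quartile of member UMIs per cone-like cell was 56.75 to 58 against at least 176. A further 11 clusters with rod markers stayed unnamed. They held 19.4% to 37.9% of the cells of a library, with a median mitochondrial share of 0.0961% to 0.643% of a cell's UMIs against 0.353% to 1.04% in rod-like cells. A further 4 clusters of 3259 cells, more than the named cone-like cells, had cone markers but stayed unnamed. They held a median of 1798 UMIs per cell, NRL at 725 to 3394 CPM beside ARR3 at 0 to 1535 CPM, and 2180 of them came from the left NHP1 library.

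Summed over all members, nuclear oxidative phosphorylation RNA was higher in rod-like and cone-like than in Müller glia-like cells. The order of rod-like and cone-like cells depended on which clusters were counted. That of cone-like and Müller glia-like cells changed in 1 of 8 libraries when cells were thinned. The sum lay at 19073, 21214 and 23905 CPM (lowest, median and highest of 8 libraries) in rod-like cells, at 14688, 18107 and 21160 CPM in cone-like cells and at 12315, 13096 and 13635 CPM in Müller glia-like cells. All rod-like and cone-like libraries lay above all Müller glia-like libraries, while the ranges of the photoreceptor classes overlapped. Within a library the cone-like sum was 0.768 to 0.952 of the rod-like sum, below 1 in 8 of 8 libraries, and the Müller glia-like sum was 0.542 to 0.696 of it, again below 1 in 8 of 8. With the unnamed rod-marker clusters counted as rod-like, the cone-like sum was 0.949 to 1.08 of the rod-like sum, above 1 in 7 of 8 libraries. With clusters of little mitochondrial RNA left out of all classes, an alternative chosen after seeing the data, it was 0.905 to 1.04 of it (median 0.956), above 1 in 1 of 8. The Müller glia-like sum stayed below the rod-like sum in 8 of 8 libraries under both. Rod-like cells held on average 103 to 153 member UMIs, cone-like cells 192 to 482 and Müller glia-like cells 72.0 to 96.8. The median totals were 4267 to 7506, 11851 to 23857 and 3841.5 to 6214.5 UMIs per cell in the same order. When cells were thinned to 1500 UMIs each, rod-like cells had a mean of 29.0 to 36.5 member UMIs, cone-like cells one of 21.4 to 31.5 and Müller glia-like cells one of 19.3 to 22.7. The thinned cone-like sum was 0.987 to 1.57 of the Müller glia-like sum, above 1 in 7 of 8 libraries. The calls between these classes also changed with thinning, as given below.

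Among the other classes, ganglion-like cells had the highest median sum, 25286 CPM over 6 libraries with a range of 20265 to 26588 CPM, which overlapped the rod-like range. RPE-like cells lay at 17600 to 21581 CPM in 3 libraries. Bipolar-like (median 14614 CPM), horizontal-like (14498 CPM), T or NK-like (13551 CPM) and Müller glia-like cells followed with ranges that overlapped each other. Microglia or myeloid-like cells (10171 CPM) and amacrine-like cells (9955 CPM) had the lowest medians among the named classes found in 3 or more libraries. The unnamed clusters with rod markers held 7215 to 17030 CPM, 0.358 to 0.712 of the rod-like sum of the same library. Free RNA, taken from barcodes with 100 to 1000 UMIs, held 4963 to 20243 CPM.

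**Figure D1:**
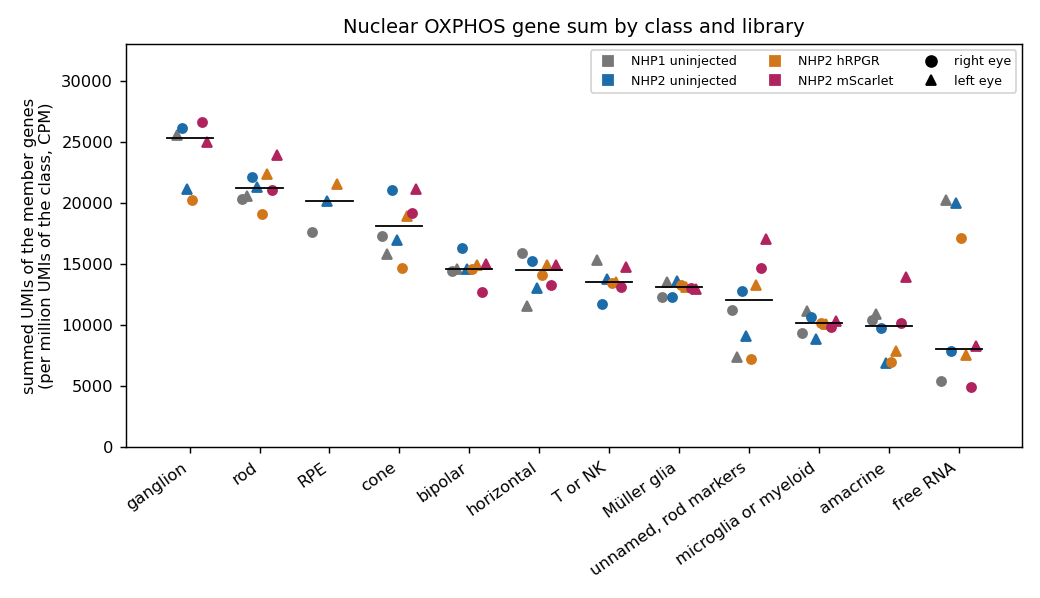
Summed UMIs of the 78 member genes, scaled to a class total of 1000000 (CPM, vertical axis from 0), for each library (points, coloured by animal and area, circles for right and triangles for left eyes), with the median of the libraries as a bar. Rod-like libraries lie between 19073 and 23905 CPM, and all Müller glia-like libraries lie below them, between 12315 and 13635 CPM.

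Cone-like cells had lower levels than rod-like cells for most members that differed. Of 76 members tested, 12 were higher in cone-like cells (15.8%) and 41 were lower (53.9%) in edgeR's quasi-likelihood test with the library as a block, at a Benjamini-Hochberg adjusted p of 0.05 over 12963 features. The test called 71.9% of all features, 33.5% higher and 38.4% lower, so the 69.7% of members called in either direction was near the background. The median log2 fold change of the members was -0.20, against -0.09 over all features tested. In 55 of the 76 members tested (72.4%) the cone-like level lay on the same side of the rod-like level in all 8 libraries, against 61.1% of all features tested. Of the 41 lower calls, 15 were kept with the unnamed rod-marker clusters counted as rod-like, and 24 without clusters of little mitochondrial RNA. Of the 12 higher calls, 11 were kept under each. The values by complex that follow are those of the named clusters and share this limit.

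Complex I, the NADH dehydrogenase, had 3 members higher and 19 lower of 30 in cone-like cells. NDUFB9, a subunit of its membrane arm, was at 566, 627 and 755 CPM in rod-like cells and at 165, 193 and 251 CPM in cone-like cells, with no overlap and a log2 fold change of -1.50 ± 0.09 (SE). NDUFA12, an accessory subunit, was at 129, 169 and 205 CPM in rod-like and at 51.6, 67.5 and 77.1 CPM in cone-like cells (-1.16 ± 0.06). Of the catalytic core, NDUFV1 (-0.35), the subunit that binds NADH, was lower, and NDUFS1 was not called (0.08 ± 0.06, adjusted p = 0.21 in edgeR). Folds were fitted with scaling factors between the sums, and in CPM NDUFS1 was lower in cone-like cells in 8 of 8 libraries. NDUFA10, another accessory subunit, went the other way, at 118 to 134 CPM in rod-like and 164 to 199 CPM in cone-like cells (0.69 ± 0.06). Of the assembly factors, NDUFAF6 (0.57) was higher in cone-like cells in 8 of 8 libraries, and NDUFAF3 (-0.97) and NDUFAF4 (-0.74) were lower in 8 of 8. NDUFAF2 (0.23) was called higher but had overlapping levels of 81.3 to 104 CPM in rod-like and 83.4 to 110 CPM in cone-like cells and was higher in 5 of 8 libraries. NDUFAF5 (-0.21) was called lower and was lower in 7 of 8.

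All 4 genes of complex II, the succinate dehydrogenase that also acts in the citric acid cycle, were lower in cone-like cells. SDHA, its flavoprotein, was at 149, 156 and 163 CPM in rod-like cells and at 75.2, 83.5 and 85.6 CPM in cone-like cells, a narrow and separate pair of ranges (-0.75 ± 0.05). SDHB, the iron-sulphur subunit, differed less (-0.22 ± 0.05). SDHD, a membrane anchor, had the largest fold of the 4 (-1.40 ± 0.12). The RefSeq gene of that symbol is a single exon of 1267 bases on chromosome 13, which may not be the gene model counted. If it is, reads shared with a near-identical copy cannot be told apart, so the value is uncertain. Of complex III, UQCRC1 (-0.30), UQCRC2 (-0.16) and UQCRQ (-0.25) were lower, and UQCRH and UQCRB were not called.

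Complex IV, the cytochrome c oxidase, was split, with 4 members higher and 4 lower of 14 in cone-like cells, and it held the most cone-biased gene with many UMIs. COX6B2, an isoform of subunit 6B first known from testis, was at 14.5, 22.6 and 55.1 CPM in rod-like cells and at 218, 240 and 273 CPM in cone-like cells. Every cone-like library lay well above every rod-like library, and the log2 fold change was 3.56 ± 0.20 (adjusted p = 1.3e-11 in edgeR). The 3 highest rod-like levels (55.1, 32.6 and 27.7 CPM) were those of the 3 libraries that stood apart in free RNA, where ARR3 in rod-like cells was also the highest, and the 3 lowest lay within the 6.28 to 16.2 CPM of free RNA. Without those 3 libraries the log2 fold change was 3.96. COX7C (0.89 ± 0.11) and COX7A1 (0.47 ± 0.09) were also higher, COX7C with a single-exon RefSeq gene of 270 bases and so uncertain. COX4I1, the common isoform of subunit 4, was at 578 to 729 CPM in rod-like and 323 to 471 CPM in cone-like cells (-0.63 ± 0.07), and COX5A (-0.50 ± 0.09) and NDUFA4 (-0.43 ± 0.09) were lower as well. COX7A2L, a factor of supercomplex assembly, had a fold of -1.43 ± 0.32 on 28 cone-like UMIs in all, and its RefSeq gene is likewise a single exon. Its levels, at most 2.76 CPM in rod-like and 1.34 CPM in cone-like cells, were not above the 0.632 to 3.29 CPM of free RNA.

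Complex V, the ATP synthase, had 3 members higher and 7 lower of 14 in cone-like cells. ATP5ME, a subunit of the membrane part, was at 366, 473 and 613 CPM in rod-like cells and at 795, 1199 and 1367 CPM in cone-like cells, with no overlap (1.42 ± 0.08). ATP5MC1, 1 of 3 genes for the proton-carrying ring subunit, was at 7.84, 9.57 and 13.1 CPM in rod-like and at 20.5, 29.9 and 33.6 CPM in cone-like cells (1.67 ± 0.10). The catalytic subunits were lower, with ATP5F1B at 512 to 722 CPM in rod-like and 281 to 421 CPM in cone-like cells (-0.66 ± 0.06) and ATP5F1A at -0.35 ± 0.06. ATP5IF1, which blocks ATP hydrolysis by the synthase, was at 253, 284 and 332 CPM in rod-like and at 155, 165 and 243 CPM in cone-like cells (-0.52 ± 0.09).

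The direction of the cone-like against rod-like comparison depended on which clusters counted as rods. With the 11 unnamed rod-marker clusters counted as rod-like, 31 members were higher and 15 lower of 76 in cone-like cells, where the test called 31.3% of all features higher and 35.2% lower. The median log2 fold change was then 0.15 over the members and -0.07 over all features. With clusters of little mitochondrial RNA left out of all classes, 19 members were higher and 24 lower of 76, near the 31.4% and 34.8% of all features, with medians of -0.04 and -0.07. With the 4 unnamed cone-marker clusters counted as cone-like, an alternative also chosen after seeing the data, 12 members were higher and 39 lower (35.4% and 35% of all features), and the ratio of the sums was 0.755 to 0.953. With both sets of unnamed clusters counted, 29 were higher and 14 lower (28.6% and 34.5% of all features), the ratio was 0.946 to 1.17, and ATP5MC2 turned to 0.0074. The left NHP1 and right NHP2 uninjected libraries, which held transgene UMIs, are among those left out in turn, and the counts were then 12 to 13 higher and 37 to 40 lower. UQCRC1 turned to 0.015 with the rod-marker clusters added. Without the 3 libraries that stood apart in free RNA, also chosen after seeing the data, 10 members were higher and 37 lower of 75, where the test called 31.2% of all features higher and 35.6% lower. Across all 26 settings, 5 members (ATP5MC1, ATP5ME, COX6B2, NDUFA10 and NDUFAF6) were called higher in cone-like cells each time. Lower each time were 8 members (ATP5F1B, NDUFA12, NDUFA5, NDUFAF3, NDUFAF4, NDUFB9, SDHA and SDHD). The share of all features called under every setting is not given here, so these counts are not set against a background.

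Müller glia-like cells had lower levels than rod-like cells for most members. Of 76 members, 11 were higher (14.5%) and 55 lower (72.4%), where the test called 84% of all features, 40.7% higher and 43.3% lower. The median log2 fold change was -0.49 over the members and -0.05 over all features tested. The levels of the libraries did not overlap between these classes for 58 of the 76 members tested (76.3%), against 59.2% of all features tested. Leaving out each library in turn gave 8 to 10 higher and 51 to 57 lower, leaving out the 3 that stood apart in free RNA gave 6 and 57 (39.1% and 40.8% of all features), and counting the unnamed rod-marker clusters as rod-like gave 23 and 33 (42% and 42.8% of all features), with 3 members, among them COX5B and NDUFB7, turning from lower to higher. Complex I had 2 members higher and 23 lower of 30, complex III 0 and 5 of 5, complex IV 3 and 8 of 14, and complex V 3 and 10 of 14.

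COX5A, a subunit on the matrix side of complex IV, was at 658, 695 and 934 CPM in rod-like cells and at 182, 203 and 228 CPM in Müller glia-like cells (-1.67 ± 0.09). UQCRH, the hinge protein of complex III, was at 948 to 1236 CPM in rod-like and 259 to 361 CPM in Müller glia-like cells (-1.64 ± 0.10). The ranges of both genes were far apart. NDUFB9 was at 138 to 191 CPM in Müller glia-like cells (-1.80 ± 0.09), and NDUFAF7, a methyltransferase for complex I assembly, at 14.0 to 17.4 CPM against 48.3 to 74.7 CPM in rod-like cells (-1.79 ± 0.08). Of the core subunits, ATP5F1B, at 204 to 294 CPM in Müller glia-like cells, ATP5F1A (-0.81), UQCRC1 (-0.80), NDUFS1 (-0.74), SDHA (-0.73), NDUFV1 (-0.31) and SDHB (-0.27) were lower in Müller glia-like cells. COX4I1 was not called (-0.01 ± 0.07, adjusted p = 0.90 in edgeR). ATP5IF1 was lower (-0.60 ± 0.09).

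The members higher in Müller glia-like than in rod-like cells were few and included isoforms of the genes that were lower. ATP5MC2, which encodes the same ring subunit as ATP5MC1 and ATP5MC3, was at 302, 345 and 382 CPM in rod-like and at 546, 629 and 683 CPM in Müller glia-like cells (1.06 ± 0.09). ATP5MC1 was at 0.775, 1.83 and 2.54 CPM in Müller glia-like cells (-2.39 ± 0.13), within the 1.02 to 8.09 CPM of free RNA or below it, so that its level there cannot be told from background. ATP5MC3 was at 46.5 to 54.8 CPM against 116 to 139 CPM in rod-like cells (-1.14 ± 0.07). COX7A1, the isoform known from heart and muscle, was at 54.9, 61.6 and 89.2 CPM in rod-like cells. In Müller glia-like cells it was at 91.3, 103 and 115 CPM (0.87 ± 0.09). COX7A2, the common isoform, was at 430 to 579 CPM in rod-like and 206 to 255 CPM in Müller glia-like cells (-1.02 ± 0.07). Neither had a gene of that symbol in the RefSeq annotation, so their exons could not be checked. NDUFAF8, a partner of NDUFAF5 in complex I assembly, was at 58.1 to 75.6 and 85.9 to 140 CPM (0.86 ± 0.09). Of the members higher in Müller glia-like cells, ATP5MC2, COX7A1 and NDUFAF8 were so called under all 26 settings. Under all of them 32 members were called lower. No share of all features is given beside these counts either. COX7A2L had a fold of 1.40 ± 0.24 on 229 Müller glia-like UMIs. Its rod-like level of 1.10 to 2.76 CPM lay within the 0.632 to 3.29 CPM of free RNA, so the fold is uncertain.

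Cone-like cells compared with Müller glia-like cells had 41 members higher (53.9%) and 19 lower (25%) of 76, where the test called 86.6% of all features, 41.1% higher and 45.5% lower. The median log2 fold change was 0.22 over the members and -0.08 over all features. Leaving out each library in turn gave 36 to 42 higher and 17 to 20 lower, and leaving out the 3 that stood apart in free RNA gave 47 and 15 (38.9% and 44.6% of all features). All 5 complex III members were higher in cone-like cells, led by UQCRH at 763 to 1281 CPM (1.71 ± 0.10). CYC1, a complex III subunit that is no member, was lower (-0.26). None of the 4 complex II genes was higher, and SDHC (-0.27) and SDHD (-1.26) were lower. COX6B2 was at 0.388, 2.20 and 3.58 CPM in Müller glia-like cells, below the 6.28 to 16.2 CPM of free RNA. Against the cone-like level its log2 fold change was 6.89 ± 0.26. ATP5MC1 (4.06 ± 0.13, against a Müller glia-like level not above that of free RNA), ATP5ME (2.31 ± 0.08) and NDUFAF7 (1.89 ± 0.08) were higher in cone-like cells, and ATP5MC2 (-1.45 ± 0.09), NDUFAF3 (-1.42 ± 0.07) and NDUFAF8 (-1.02 ± 0.09) lower. Among the core genes, COX5A (1.16), NDUFS1 (0.82), UQCRC1 (0.49), ATP5F1A (0.46) and ATP5F1B (0.34) were higher, COX4I1 (-0.62) lower, and SDHA, SDHB and NDUFV1 not called.

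This last comparison changed with thinning, and the cause was not tested. With cells thinned to 1500 UMIs each, 22 members were higher and 31 lower of 74 tested, where the test called 36% of all features higher and 42.1% lower, with a median of -0.18, and 5 members called higher before were then called lower. The ratio of the sums was 1.11 to 1.71 before and 0.987 to 1.57 after thinning, above 1 in 8 and in 7 of 8 libraries. DESeq2 called 36 higher and 26 lower of 76, where it called 38.4% of all features higher and 48% lower, with medians of 0.12 over the members and -0.18 over all features. Under all 26 settings 22 members were called higher in cone-like cells, among them COX6B2, ATP5MC1, ATP5MC3, ATP5ME, COX5A, COX7A2, NDUFS1 and UQCRH. Called lower each time were 8, ATP5F1D, ATP5MC2, COX4I1, NDUFA12, NDUFAF3, NDUFAF8, NDUFB10 and NDUFB3. Here too no share of all features is given beside the counts.

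**Figure D2:**
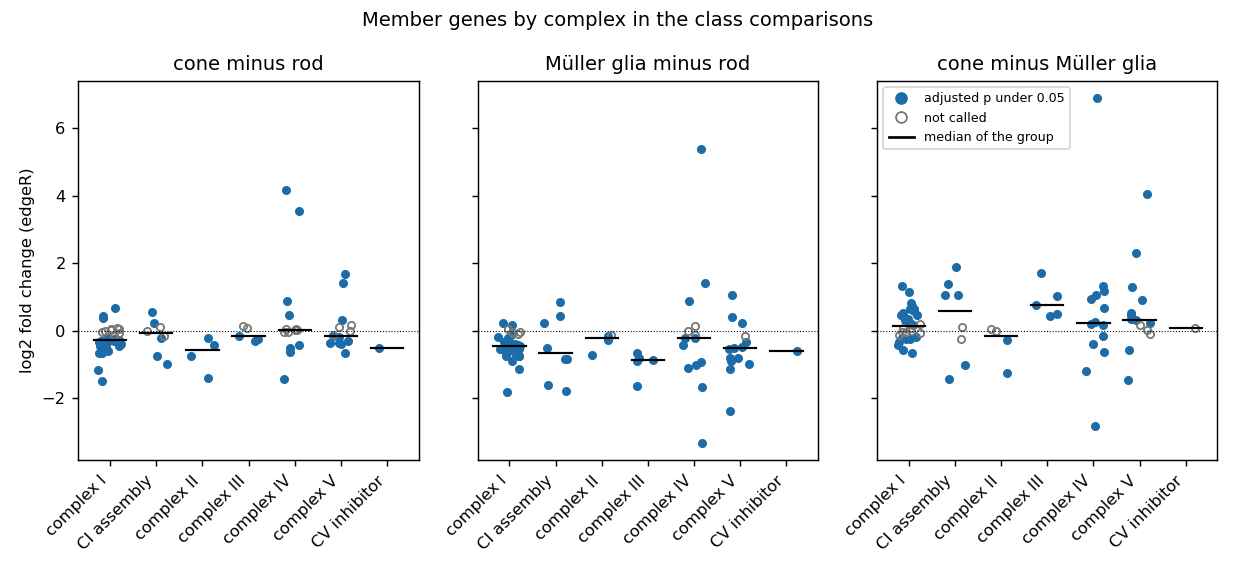
Log2 fold change (edgeR, vertical axis) of each of the 76 members tested, by complex, in the 3 class comparisons, with filled points for an adjusted p under 0.05, open points for members not called and a bar for the group median. All 5 complex III genes lie below 0 in Müller glia-like minus rod-like cells and above 0 in cone-like minus Müller glia-like cells, and the uppermost complex IV points of the left and middle panels are NDUFA4L2, which had 18 UMIs in rod-like cells.

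Several members exist as sets of isoforms, whose levels in the remaining classes are given next. COX6B2 was at 27.7 to 126 CPM in bipolar-like cells, where all 8 libraries lay below all cone-like libraries, and had median levels of 1.61 to 3.32 CPM in ganglion-like, horizontal-like, amacrine-like and RPE-like cells. COX6B1, its common counterpart, was at 250 to 312 CPM in rod-like, 195 to 306 CPM in cone-like and 254 to 294 CPM in Müller glia-like cells, with overlapping ranges, and was not called in rod-like against either class. COX4I2, the isoform of subunit 4 known from lung and from oxygen sensing, had 37 rod-like, 4 cone-like and 56 Müller glia-like UMIs in all and was not tested. It reached 858 and 1585 CPM in vascular-like cells of 2 libraries and 15.7 to 98.5 CPM in bipolar-like cells, above the 0.781 to 5.40 CPM of free RNA.

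NDUFA4L2, a hypoxia-induced counterpart of NDUFA4, was at 189 and 392 CPM in the same vascular-like cells. In the compared classes it was rare, with 18 rod-like UMIs of which 2 libraries had none, 62 cone-like and 191 Müller glia-like UMIs. Its level was at most 0.272 CPM in rod-like cells, 0.325 to 2.39 CPM in cone-like cells and 0.856 to 9.16 CPM in Müller glia-like cells, and since the fitted fold change at such counts depends on the prior count, none is given. NDUFA4 itself, now counted with complex IV, was at 1498, 1724 and 2109 CPM in rod-like cells, at 842, 1139 and 1399 CPM in cone-like cells and at 670, 710 and 736 CPM in Müller glia-like cells, an order without overlap between neighbours. COX6A2, the muscle isoform of subunit 6A, had no UMI in the rod-like, cone-like or Müller glia-like cells of any library, which in the pooled sums of 8 libraries allows at most 3 counts per class. COX7B and COX8A were not called between cone-like and rod-like cells (0.05 ± 0.07 and 0.01 ± 0.07). In CPM, COX7B was lower in cone-like cells in 6 of 8 libraries and COX8A in 7 of 8. COX8A was lower in Müller glia-like than in rod-like cells (-0.92 ± 0.07).

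**Figure D3:**
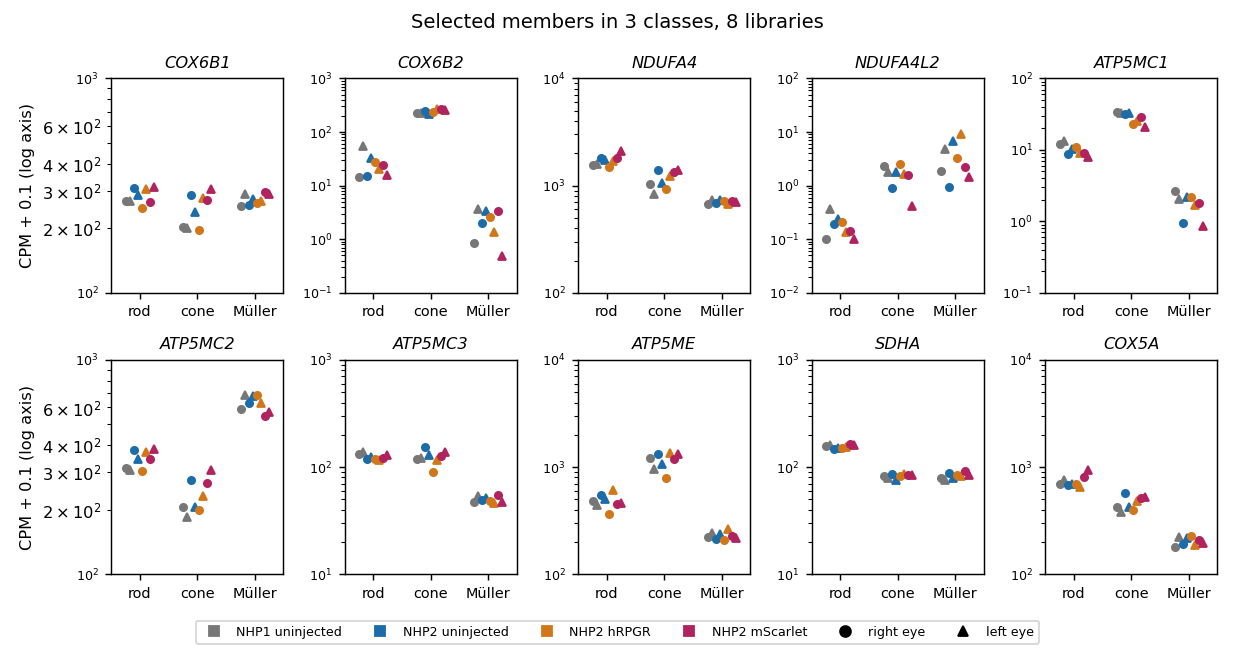
Level of 10 members in rod-like, cone-like and Müller glia-like cells of 8 libraries, as CPM plus 0.1 on a log axis whose range differs between panels, with the colours and symbols of animals, areas and eyes. COX6B2 separates the 3 classes without overlap, and ATP5MC1 and ATP5MC2 are ordered oppositely, with Müller glia-like cells lowest for the first and highest for the second. The Müller glia-like levels of COX6B2 and ATP5MC1 and the lowest rod-like levels of COX6B2 lie within or below the range of free RNA.

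**Figure D4:**
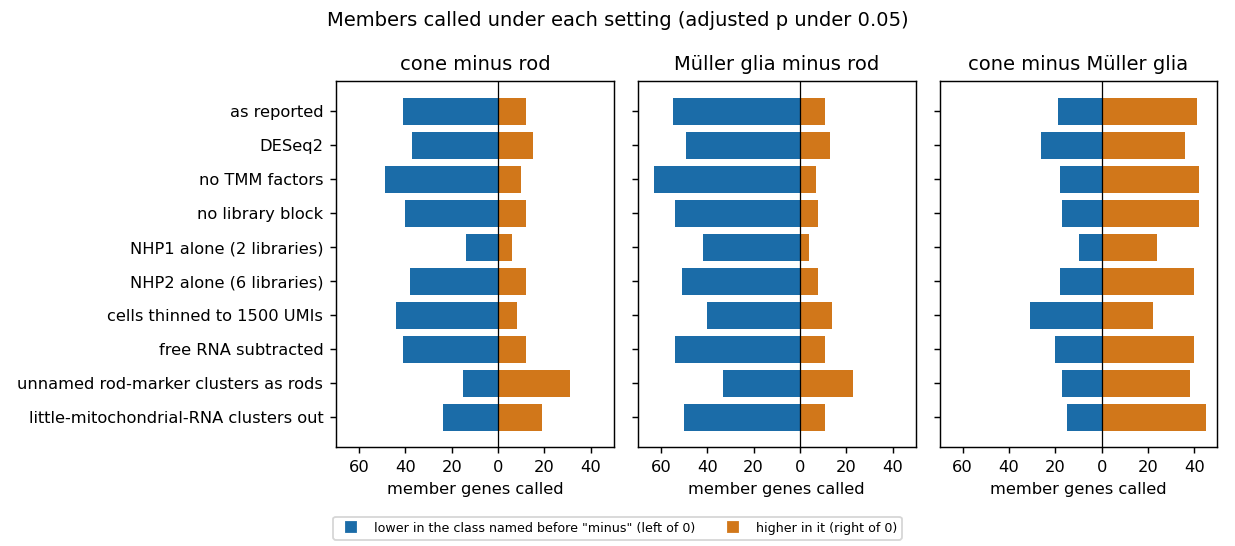
Number of member genes called lower (bars left of 0) and higher (bars right of 0) at an adjusted p under 0.05 in each class comparison, under the reported setting and 9 alternatives. The balance changes to 31 higher and 15 lower for cone-like minus rod-like cells with unnamed rod-marker clusters counted as rods, and to 22 higher and 31 lower for cone-like minus Müller glia-like cells after thinning.

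Other lists of the pathway are given by their counts, beside which the test called 33.5% of all features higher and 38.4% lower in cone-like than in rod-like cells, 40.7% and 43.3% in Müller glia-like than in rod-like cells, and 41.1% and 45.5% in cone-like than in Müller glia-like cells. Of the 12 mitochondrially encoded subunits tested, 10 were higher and 0 lower in cone-like than in rod-like cells (median log2 fold change 0.73). The sign is opposite to that of the nuclear members' median. Mitochondrially encoded subunits stayed mostly higher with the unnamed rod-marker clusters counted as rods (12 and 0), where the nuclear members' median was also above 0, at 0.15, and after thinning (8 and 1). In Müller glia-like cells 2 were higher and 8 lower than in rod-like cells (-0.65), and in cone-like cells 11 were higher and 0 lower than in Müller glia-like cells (1.44). Their summed level varied far more between libraries than that of the nuclear members, from 3699 to 10366 CPM in rod-like and from 4398 to 20075 CPM in cone-like cells, with the left NHP1 library lowest in both.

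Of 42 assembly factors that are no members, 6 were higher and 23 lower in cone-like than in rod-like cells, and 12 and 22 in Müller glia-like than in rod-like cells. The electron carriers and citric acid cycle enzymes had 6 higher and 14 lower of 23 in the first comparison and 5 and 16 in the second. Of 16 regulators of mitochondrial biogenesis, 4 were higher and 6 lower in cone-like than in rod-like cells, and 2 and 13 in Müller glia-like than in rod-like cells. Glycolysis genes had 4 higher and 10 lower of 18 in the first comparison and 6 and 9 in the second. Against Müller glia-like cells, cone-like cells had 14 higher and 19 lower of the assembly factors, 13 and 9 of the carriers and cycle enzymes, 9 and 3 of the regulators and 6 and 8 of the glycolysis genes. Cytosolic ribosomal protein genes leaned the same way as the members between cone-like and rod-like cells and the other way between Müller glia-like and rod-like cells. Of 77, 61 were lower and 7 higher in cone-like than in rod-like cells (median -0.82), while 63 were higher and 9 lower in Müller glia-like than in rod-like cells (0.78). Their part in the members' differences was not tested.

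Between the areas of NHP2, no member passed the test in any class. In rod-like cells, 0 of 75 members were called between the mScarlet bleb and the uninjected area by edgeR, 5 had an unadjusted p under 0.05 and DESeq2 called 1, where edgeR called 3.42% of all features. Between the hRPGR bleb and the uninjected area the counts were 0, 0 and 0 (0% of all features), and between the blebs 0, 1 and 0 (0.0143%). In cone-like cells, with 74 members tested, edgeR called 0 in all 3 comparisons, with 4, 5 and 1 members at an unadjusted p under 0.05 and 1, 0 and 0 called by DESeq2, where edgeR called 1.8%, 0.0261% and 0.253% of all features. In Müller glia-like cells, with 76 tested, edgeR again called 0, with 3, 0 and 3 at an unadjusted p under 0.05 and 0, 0 and 0 by DESeq2, against 0.366%, 0.00779% and 0.00779% of all features. With 2 libraries per area, a count of 0 does not show that the areas were alike.

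The member nearest to a call in rod-like cells was NDUFS7, a complex I subunit that carries an iron-sulphur cluster. It was at 79.8 and 80.1 CPM in the right and left uninjected areas, at 64.8 and 81.0 CPM in the hRPGR blebs and at 61.1 and 63.1 CPM in the mScarlet blebs. Both mScarlet libraries lay below both uninjected libraries, with a log2 fold change of -0.48 ± 0.14 and an edgeR adjusted p of 0.093. It passed with DESeq2 (adjusted p = 0.045), with no filter on low counts (0.030) and without either hRPGR library (0.031 and 0.032). NDUFAF1 (0.43 ± 0.15) and NDUFAF7 (0.31 ± 0.12), a pair of complex I assembly factors, had the next lowest p there (adjusted p = 0.13 and 0.16 in edgeR), and NDUFAF7 turned to -0.16 without clusters of little mitochondrial RNA.

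In cone-like cells NDUFC2, a subunit of the complex I membrane arm, was at 262 and 205 CPM in the uninjected areas, at 247 and 228 CPM in the hRPGR blebs and at 318 and 436 CPM in the mScarlet blebs. The mScarlet libraries were the highest of the 6, with a log2 fold change of 0.57 ± 0.17 over the uninjected area (edgeR adjusted p = 0.13) that passed with DESeq2 (adjusted p = 0.048) and with no filter on low counts (0.0093). ATP5MC1 (-0.48 ± 0.18) and NDUFS4 (-0.27 ± 0.11) followed. Between the hRPGR bleb and the uninjected area, ATP5MC3 (-0.48 ± 0.16), SDHC (0.42 ± 0.15) and NDUFS7 (-0.46 ± 0.17) had the lowest p, none of them called. ATP5MC3 passed with no filter on low counts (adjusted p = 0.045). Between the blebs NDUFC2 (0.56), NDUFA8 (0.31) and ATP5IF1 (0.31) came first, not called, and NDUFC2 passed with no filter (0.014).

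In Müller glia-like cells NDUFAF8 was at 104 and 140 CPM in the uninjected areas, at 110 and 113 CPM in the hRPGR blebs and at 85.9 and 86.6 CPM in the mScarlet blebs, which were the lowest of the 6. Its log2 fold change of -0.58 ± 0.15 was not called (edgeR adjusted p = 0.18) and became -0.77 (adjusted p = 0.031) without the right uninjected library, the library that held coRPGR UMIs. That fit has 1 uninjected library, which is assumed to vary like the other areas. NDUFAF4 (-0.33 ± 0.13) and ATP5MC2 (-0.31 ± 0.12) followed. Of the remaining area comparisons, NDUFAF7, NDUFAF1 and NDUFAB1 had the lowest p between the hRPGR bleb and the uninjected area in rod-like cells, COX7A1, NDUFAF4 and COX5A between the blebs in rod-like cells, SDHC, NDUFAF5 and UQCRB between the hRPGR bleb and the uninjected area in Müller glia-like cells, and UQCRB, NDUFAF8 and NDUFAF5 between the blebs in those cells. Their adjusted p lay between 0.42 and 1 in edgeR.

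The sum of the members by area differed in direction between the eyes. In rod-like cells the hRPGR bleb held 0.862 of the uninjected sum in the right eye and 1.05 of it in the left eye, and the mScarlet bleb 0.953 and 1.12. In cone-like cells these ratios were 0.697 and 1.12 for hRPGR and 0.908 and 1.25 for mScarlet. In Müller glia-like cells they were 1.08 and 0.962 for hRPGR and 1.06 and 0.950 for mScarlet, the opposite order. In all 3 classes both blebs thus lay on one side of the uninjected area in the right eye and on the other side in the left eye. The left uninjected library, to which the left blebs are compared, and the right hRPGR library are among the 3 that stood apart in free RNA, and the part of this in the order of the areas was not tested. The cone-like sum of the right hRPGR bleb, 14688 CPM, was the lowest cone-like value of all 8 libraries. In cone-like cells coRPGR reached 12438 CPM there, against 389 CPM in the left hRPGR bleb. A link between transgene level and sum was not tested.

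**Figure D5:**
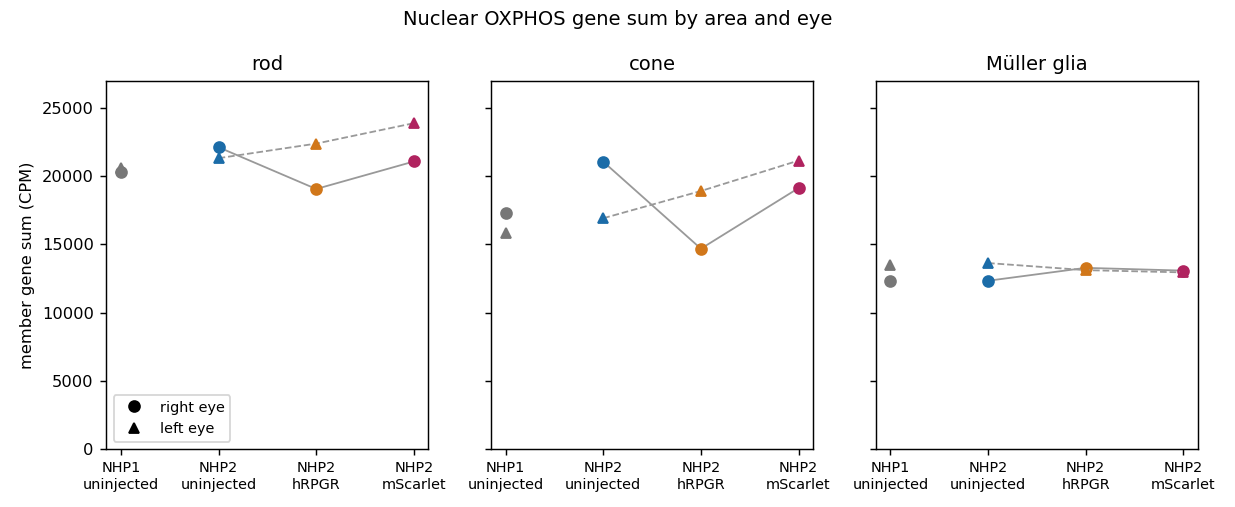
Summed CPM of the members (vertical axis from 0) in rod-like, cone-like and Müller glia-like cells by area, with circles and solid lines for right and triangles and dashed lines for left eyes of NHP2, and the NHP1 libraries beside them. In rod-like and cone-like cells the blebs lie below the uninjected area in the right eye and above it in the left eye, and Müller glia-like values stay between 12315 and 13635 CPM.

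Between the left and the right eyes of NHP2, no member was called. edgeR called 0 members in rod-like, cone-like and Müller glia-like cells, with 0, 0 and 0 at an unadjusted p under 0.05 and 0, 0 and 0 by DESeq2, where it called 0%, 0.00872% and 0% of all features. In rod-like cells 66 of 75 members had a higher fitted level in the left eyes, with a median log2 fold change of 0.09, against -0.01 over all features, but the members share their libraries and are not independent. COX7A2L, NDUFB3 and NDUFAF1 had the lowest p in rod-like cells, NDUFAF6, NDUFAF4 and UQCRQ in cone-like cells, and NDUFA4L2, NDUFB1 and ATP5F1E in Müller glia-like cells, all with an adjusted p of at least 0.998 in edgeR.

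Whether the mScarlet bleb differed from the uninjected area by another amount in cone-like or Müller glia-like than in rod-like cells was tested as an interaction. edgeR called 0 of 76 members in each, with 3 and 4 at an unadjusted p under 0.05 and 0 by DESeq2, where it called 0.199% of all features for cone-like and 1.93% for Müller glia-like against rod-like cells. NDUFAF7 (-0.48 ± 0.16), SDHD (-0.46 ± 0.19) and NDUFB11 (0.43 ± 0.18) came first for cone-like cells. NDUFAF1 (-0.69 ± 0.21), COX7A1 (-0.60 ± 0.18) and NDUFAF4 (-0.53 ± 0.17) did so for Müller glia-like cells, with adjusted p of 0.11, 0.11 and 0.13 in edgeR. COX7A1 was at 60.5 and 57.4 CPM in rod-like cells of the uninjected areas and at 70.3 and 89.2 CPM in those of the mScarlet blebs.

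The animals were not tested against each other, being 1 each. Summed member levels of the NHP1 libraries were 20286 and 20581 CPM in rod-like cells, inside the range of the NHP2 libraries. Single members could still lie apart. In rod-like cells SDHD was at 29.1 and 27.3 CPM in NHP1 and at 49.4 to 65.7 CPM in NHP2. COX7C went the other way, at 791 and 779 CPM in NHP1 and at 479 to 622 CPM in NHP2. In the 2 NHP1 libraries alone, 6 members were higher and 14 lower in cone-like than in rod-like cells, where the test called 17.6% of all features higher and 17.1% lower. All 20 were called in the same direction over the 8 libraries. Those 8 include these 2, so the shared direction is in part built in. In Müller glia-like against rod-like cells, 4 were higher and 42 lower, against 31% and 31.6% of all features.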

How the data were processed

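Retina punches of 2 macaques gave 8 libraries of 10x 5′ single-cell RNA sequencing. The deposited UMI counts were unfiltered matrices that the authors made with Cell Ranger 8.0.1, per the file headers, on Mmul_10 with the vector sequences added. Cells were barcodes that reached 1500 UMIs and 300 genes with a mitochondrial share of no more than 20%. Doublets were scored per library and the highest scores, 0.8% per 1000 cells, were set aside, 8604 in all. Cells were clustered in scanpy 1.11.5 (3000 variable genes, 40 components, 15 neighbours, Leiden resolution 2) without the members or the other lists, 275 genes in all. Clusters were named from fixed markers, by rules set after seeing the clusters, which left 34 of 76 clusters unnamed. UMIs were summed per library and class (at least 20 cells), and all features were tested in edgeR 4.0.16 (quasi-likelihood test, TMM factors, Benjamini-Hochberg adjusted p of 0.05, R 4.3.3), with DESeq2 1.42.0 as an alternative. Class tests had the library as a block and used 8 libraries, and area tests used the 6 libraries of NHP2. The tests were checked on simulated data, where all held a larger share of false calls than the threshold allows. The mScarlet against uninjected test recovered 32.6%, 27.7% and 6.25% of 1.5-fold changes in rod-like, cone-like and Müller glia-like cells. For 2-fold changes these were 56.2%, 52.1% and 20.8%, and 8.89%, 12.8% and 15% of calls were false. The cone-like against rod-like test recovered 75% of 1.5-fold changes, with 5.92% of calls false. In that simulation all classes shared the rod-like profile and few genes were changed, whereas the class test called most features in the data. Its recovery and share of false calls in the data may therefore differ from these.

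The members and lists were chosen with earlier results of these data known. The text names a core of catalytic subunits, sets of isoforms, the 5 called members with the largest fold in each direction that differed so in every library, and, where no member was called, the 3 with the lowest p. The 5′ UMI counts are not scaled to length, so levels are compared between classes and not between genes. Of the usual symbols, 16 matched no feature by symbol and were not analysed here, though features without a symbol may hold some of them, and a gene of the core is not reported here. The numbers 1 and 2 mark the right and left eye, so that areas of NHP2 with the same number share an eye. The deviations from the area means correlated between areas at -0.41 to 0.29 in rod-like, -0.23 to 0.02 in cone-like and -0.01 to 0.07 in Müller glia-like cells. Intervals and floors would cover counting error only.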

Additional observations from a re-analysis of the deposited data

How the results depend on the processing

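Of 110 named gene values, 2133 of 2231 alternatives kept direction and side of the threshold, 81 lost the call, 9 gained it and 8 reversed. Many of these values were named for a large fold and the same direction in every library, so this does not stand for all members. Of cone-like against rod-like calls, 15 of 41 lower and 11 of 12 higher ones were kept with unnamed rod-marker clusters as rod-like. With the unnamed rod-marker clusters counted as rod-like, 31 members were higher and 15 lower in cone-like than rod-like cells, 23 and 33 in Müller glia-like than rod-like cells, the rod-like sum was 17684 CPM, and UQCRC1 (0.015, cone-like minus rod-like) reversed. Without clusters of little mitochondrial RNA, chosen after seeing the data, cone-like against rod-like cells had 19 higher and 24 lower, and NDUFAF7 in the mScarlet bleb of rod-like cells turned to -0.16. Without the 3 libraries that stood apart in free RNA, likewise chosen after seeing the data, 6 members were higher in Müller glia-like than rod-like cells. With unnamed cone-marker clusters added to cone-like and rod-marker ones to rod-like cells, also chosen after seeing the data, 29 members were higher and 14 lower in cone-like than rod-like cells, 17 were higher in Müller glia-like than rod-like cells, and ATP5MC2 (0.0074, cone-like minus rod-like) reversed. Thinning to 1500 UMIs gave 22 higher and 31 lower for cone-like against Müller glia-like cells, COX7B at -0.25 (cone-like minus Müller glia-like) and a Müller glia-like sum of 14482 CPM, which was 13977 CPM with free RNA subtracted and 12580 CPM at a minimum of 3000 UMIs. The alternatives to the levels were also chosen after seeing the data. NHP1 alone, with fewer libraries, called 20 members (6 higher, 14 lower), 4 higher, and 34 (24 and 10) in the 3 class comparisons in the order of the report. Without TMM factors 7 members were higher in Müller glia-like than rod-like cells, and the median of all features moved from -0.09 to -0.26 (cone-like minus rod-like) and from -0.05 to -0.23 (Müller glia-like minus rod-like). DESeq2 called 1 member each in the mScarlet against uninjected comparison of rod-like and of cone-like cells. No filter on low counts gave 1 in these and in the hRPGR against uninjected and mScarlet against hRPGR comparisons of cone-like cells. Leaving out 1 library gave 0 to 1 in the mScarlet against uninjected comparison of rod-like and of Müller glia-like cells, where an area left with 1 library is assumed to vary like the others, and between eyes NDUFB3 in rod-like cells ranged from -0.011 to 0.43 and UQCRQ in cone-like cells from -0.022 to 0.32, negative without either hRPGR library. The causes were not tested.

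With the eye as replicate block, pairing the areas of NHP2 by eye, 0 members were called in each area comparison. Without the library block the class comparisons called 12 higher and 40 lower, 8 and 54, and 42 and 17. Counts in this section, and those with 1 library left out, are given without the share of all features called. They show how the calls move with the setting and are not a result about the members. Area results rest on 2 libraries per area from 1 animal.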
